A study of Mus musculus with 10 samples.

Results

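The forkhead (Fox), T-box (Tbx) and SOX genes were taken from the aorta expression table by their symbols, as every gene named Fox followed by a letter from a to s and a number, Tbx and a number, or Sox and a number. The rule found 76 of the 55426 genes of the table, made up of 44 forkhead, 13 T-box and 19 SOX genes. Their levels were followed in the thoracic aortas of 3 Control mice (Prdm16f/f) and 3 Prdm16SMKO mice (Prdm16f/f, SMMHC-CreERT2), so both groups carried the floxed Prdm16 alleles and the Prdm16SMKO mice also carried the inducible Cre. The SMMHC (Myh11) promoter drives this tamoxifen-inducible Cre in smooth muscle cells, and the paper places the transgene on the Y chromosome. The labels give tamoxifen at an age of 8 weeks and a washout of 2 weeks for the Prdm16SMKO mice, and neither for the Control mice. The labelled Control genotype holds no Cre, so the loss of Prdm16 and the presence of an active Cre cannot be told apart in these groups. If the Control mice had no tamoxifen, its own effect cannot be told apart from these either. Binding was read from peaks of Flag-tagged PRDM16 in wild-type vascular fibroblasts that lentivirus had reached over 48 hours and that were then kept for 1 week under puromycin (2 μg/mL), with vector-infected cells as the control and 1 anti-Flag library each. The peaks thus come from connective tissue cells that were made to express PRDM16, and not from the smooth muscle of the aortas.

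The 3 families are transcription factors that differ in the protein fold that holds DNA. Forkhead factors use a winged helix, T-box factors the T domain first known from Brachyury, and SOX factors a bending high-mobility-group box related to Sry. In arteries, FOXC, FOXF and FOXS proteins and TBX18 are known from mural cells and their mesenchymal progenitors, FOXO proteins carry the insulin and growth-factor signal to the nucleus, SOX7, SOX17 and SOX18 belong to endothelium, and SOX5, SOX6 and SOX9 together run the cartilage program.

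Prdm16 itself was at 56.1, 47.6 and 40.3 TPM (transcript abundance scaled to transcript length and library size) in the Control aortas and at 23.3, 33.3 and 23.4 TPM in the Prdm16SMKO aortas. The groups did not overlap, but the difference did not pass the test (limma, adjusted p = 0.0725 over 15668 genes). Genes were tested when their mean was at least 0.5 TPM, and a gene is called here when its adjusted p, by limma with Benjamini-Hochberg adjustment over all tested genes, is under 0.05. Over the 15668 genes, log2 fold changes centred on -0.12, and on 0.00 after median-ratio rescaling. The 7 smooth muscle markers summed to between 20746 and 24185 TPM in the Control aortas and between 13816 and 17864 TPM in the Prdm16SMKO aortas, and none of them was at 0 or called (limma, 4 were lower at an unadjusted p under 0.05). Acta2 made up the largest part of these sums, with means of 11569 TPM in Control and 7512 TPM in Prdm16SMKO. The log2 fold change was negative for 6 of the 7 and positive for Myocd (0.25), and Myocd, Myh11 and Smtn had overlapping groups. The 10 endothelial markers summed to 178 to 206 TPM in Control and 126 to 210 TPM in Prdm16SMKO, and 0 were called (limma, 2 were lower at an unadjusted p under 0.05). The 7 fibroblast markers summed to 1524 to 2037 TPM in Control and 1161 to 1572 TPM in Prdm16SMKO, with overlapping groups. Only Col3a1 among them was called, as lower (limma adjusted p = 0.0354), while Dcn, Dpt, Pdgfra and Lum had positive log2 fold changes and the median of the 7 was 0.13. In a whole aorta, fewer cells of a type and less RNA per cell cannot be told apart, and the part of these shifts in the results below was not tested.

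Of the 76 genes, 39 passed the filter of 0.5 TPM. These were 21 of the 44 forkhead, 7 of the 13 T-box and 11 of the 19 SOX genes. A mean of at least 10 TPM was reached by 18 genes, of which 15 were forkhead, 2 SOX (Sox13 and Sox4) and 1 T-box (Tbx18). TPM are scaled to transcript length, so the levels of different genes can be set side by side. Foxp1 was the most abundant, with 94.6, 82.5 and 80.6 TPM in Control and 96.3, 110 and 79.0 TPM in Prdm16SMKO. Foxn3, Foxc1 and Foxc2 followed with means over the 6 aortas of 53.6, 51.9 and 40.6 TPM, and the ranges of Foxn3 and Foxc1 over the 6 aortas overlapped. The T-box genes were led by Tbx18, with 33.8, 26.5 and 26.9 TPM in Control and 29.0, 33.6 and 23.3 TPM in Prdm16SMKO, while Tbx1, Tbx2 and Tbx20 had means of 5.74, 4.93 and 4.14 TPM with overlapping ranges. The SOX genes were led by Sox13 at 15.4 TPM and Sox4 at 10.4 TPM, followed by Sox17 at 7.43 TPM and Sox5 at 7.40 TPM.

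At the other end, 16 genes were listed at 0 TPM in all 6 aortas. They are Foxa1, Foxb1, Foxb2, Foxd4, Foxe3, Foxi1, Foxi2, Foxi3, Foxn1, Foxn4, Foxr1, Sox1, Sox3, Sox14, Sox21 and Tbx19, most of them known from epithelia, the nervous system or endocrine organs. Another 21 genes were above 0 in at least 1 aorta but below the filter. Of these, Tbx5 (0.48 TPM), Foxd3 (0.44), Foxf2 (0.35) and Sox30 (0.29) had the highest means, and the others, among them Foxp3, Foxq1, Foxj1, Foxa2, Foxh1, Sox2, Sox15, Tbx21, Foxl2, Foxr2, Tbx4, Tbx10, Foxa3, Foxe1, Sox11 and Tbx22, had means of 0.0050 to 0.19 TPM. The plot of levels by aorta shows the tested genes over a range from under 1 TPM to above 100 TPM.

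**Figure D1:**
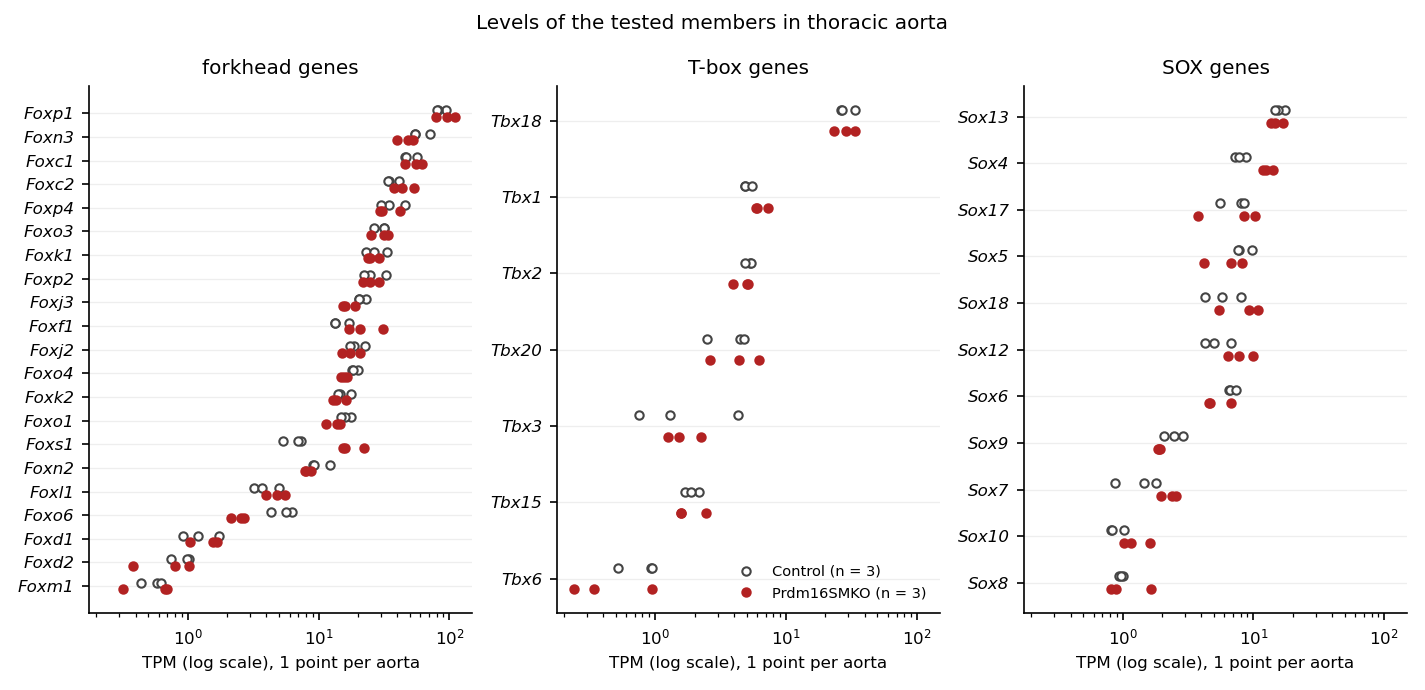
TPM of the 39 tested genes on a log scale, 1 panel per family, with an open point for each of the 3 Control aortas and a filled point for each of the 3 Prdm16SMKO aortas. Most genes have mixed points, Foxs1 and Sox4 have all Prdm16SMKO points to the right, and Foxo6 has all of them to the left.

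Foxs1 was the only one of the 39 tested genes that was called, and it rose. The paper, by its own test of these aortas, lists other members among its changed genes with PRDM16 at the promoter. They include Foxo6 as lower and Foxc2, Foxf1, Foxp1 and Sox4 as higher. A gene not called here by limma on TPM is thus not shown to be unchanged. FOXS1 is a small forkhead factor known from neural crest derivatives and from pericytes. Its gene lies on chromosome 2 at 152931898 to 152933208 on the minus strand (GRCm38). Foxs1 was at 7.38, 6.95 and 5.33 TPM in the Control aortas and at 15.4, 22.2 and 15.8 TPM in the Prdm16SMKO aortas. The lowest Prdm16SMKO aorta was above the highest Control aorta, and the means were 6.55 ± 1.08 and 17.8 ± 3.77 TPM (SD, n = 3 each), a ratio of 2.72. The log2 fold change of Foxs1 on the log2(TPM + 0.1) scale was 1.42 with an SE of 0.20 and an adjusted p of 0.0119 (limma). Across all genes 0.389% were called as higher and 0.683% as lower, so 1 of 39 (2.56%) as higher is a count of a single gene. Leaving out each aorta in turn gave Foxs1 a log2 fold change of 1.26 to 1.52 and an adjusted p of 0.0262 to 0.0470 (limma), and limma without the mean-variance trend gave an adjusted p of 0.0779. Among all 76 genes Foxs1 was the 20th, 22nd and 24th most abundant in the Control aortas and the 15th, 11th and 11th in the Prdm16SMKO aortas. The 8 Schwann and neural crest markers summed to 130 to 156 TPM in Control and 129 to 207 TPM in Prdm16SMKO, with overlapping groups and 0 called (limma, 0 also at an unadjusted p under 0.05). Most of each sum was Ncam1, at 137.0, 112.4 and 111.6 TPM in Control and 145.5, 183.5 and 108.9 TPM in Prdm16SMKO, so the sums say little about the other markers.

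Foxo6 and Sox4 came next by adjusted p. FOXO6 is the member of the insulin-regulated FOXO group best known from brain and liver, and its gene spans 120267079 to 120287349 on chromosome 4 (minus strand). Foxo6 was at 6.24, 5.68 and 4.35 TPM in Control and at 2.56, 2.71 and 2.16 TPM in Prdm16SMKO, with no overlap. Its log2 fold change was -1.09 (SE 0.21, 95% interval -1.58 to -0.60, limma adjusted p = 0.0567). SOX4, a factor of progenitor and migrating cells, is encoded on chromosome 13 at 28948919 to 28953713 (minus strand). Sox4 was at 8.84, 7.23 and 7.80 TPM in Control and at 11.8, 14.2 and 12.5 TPM in Prdm16SMKO, again with no overlap. Its log2 fold change was 0.68 (SE 0.15, 95% interval 0.34 to 1.03, limma adjusted p = 0.0845). After median-ratio rescaling both passed the threshold, Foxo6 at -0.98 (limma adjusted p = 0.0229) and Sox4 at 0.80 (limma adjusted p = 0.0113).

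Groups without overlap were found for 11 of the 39 tested genes. In the higher direction they were 4 genes (10.3%), Foxs1, Sox4, Tbx1 and Sox7, against 4.08% of all tested genes. In the lower direction they were 7 genes (17.9%), Foxo6, Foxn3, Foxj3, Foxo4, Foxo1, Foxn2 and Sox9, against 14.9% of all tested genes. Except for Foxs1, Foxo6 and Sox4, their log2 fold changes lay between -0.36 and 0.74 and their limma adjusted p between 0.350 and 0.571. At an unadjusted p under 0.05 in limma there were 8 genes, 5 of 39 with a positive log2 fold change against 3.22% of all tested genes, and 3 of 39 with a negative one against 9.45%.

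The FOXO group, whose nuclear entry AKT blocks after insulin or growth-factor signals, had 4 tested members. Foxo3 was at 31.9, 26.3 and 31.5 TPM in Control and 31.6, 34.0 and 25.2 TPM in Prdm16SMKO, and its 95% interval of the log2 fold change ran from -0.33 to 0.35. Foxo4 was at 20.2, 18.1 and 18.4 TPM in Control and 15.6, 16.6 and 15.0 TPM in Prdm16SMKO (log2 fold change -0.26, limma adjusted p = 0.440). Foxo1 was at 17.8, 16 and 14.8 TPM in Control and 13.9, 14.6 and 11.5 TPM in Prdm16SMKO (log2 fold change -0.28, limma adjusted p = 0.474). The 3 FOXO genes other than Foxo3 were thus lower in every Prdm16SMKO aorta than in every Control aorta, and none of them was called. Groups without overlap in the lower direction were found for 14.9% of all tested genes. After median-ratio rescaling the log2 fold change was -0.14 for Foxo4 and -0.16 for Foxo1 (limma adjusted p = 0.457 and 0.421). For Foxo6 it was -0.98 (limma adjusted p = 0.0229).

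Genes upstream and downstream of the FOXO factors were taken from a list of 36 genes (insulin receptor and IRS adapters, PI3K, AKT and SGK kinases, 14-3-3 proteins, coactivators and target genes). Of these, 35 were tested, and 1 was called as lower and 0 as higher (limma), beside 0.683% and 0.389% of all tested genes. At an unadjusted p under 0.05 in limma, 5 were lower and 0 higher, beside 9.45% and 3.22% of all tested genes. The log2 fold change was positive for 6 and negative for 29, with a median of -0.17 beside -0.12 for all tested genes. Since that median lies below 0, most of all tested genes had a negative sign too. The called gene was Irs2, an adapter of the insulin receptor and itself a FOXO target. Irs2 was at 34.3, 30.3 and 27.8 TPM in Control and at 13.8, 17.3 and 12.6 TPM in Prdm16SMKO, with a log2 fold change of -1.08 (SE 0.16, limma adjusted p = 0.0153). The call of Irs2 was lost without Control 1 (limma adjusted p = 0.0665), Control 2 (0.0598) or Prdm16SMKO 1 (0.0613). Groups without overlap were found for 9 of the 35 in the lower direction and for 1, Sesn3, in the higher direction, beside 14.9% and 4.08% of all tested genes. The 9 were Irs2, Irs1, Fbxo32, Akt2, Ywhae, Pdpk1, Pik3cb, Gadd45a and Cited2, and apart from Irs2 none was called, with Irs1 at -0.55 (limma adjusted p = 0.146) and the ubiquitin ligase gene Fbxo32 at -0.57 (0.114). By its own test of these aortas, the paper lists Irs2, Irs1 and Fbxo32 as lower and Sesn3 and Igf1r as higher, all with PRDM16 at the promoter. Genes of this list that are not called here are thus not shown to be unchanged.

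The mesenchymal forkhead genes Foxc1, Foxc2, Foxf1 and Foxl1 had positive log2 fold changes and were not called. Foxf1, a factor of splanchnic mesenchyme, was at 17.2, 13.3 and 13.2 TPM in Control and at 20.6, 31.4 and 17.0 TPM in Prdm16SMKO, where the highest Control aorta was just above the lowest Prdm16SMKO aorta. Its log2 fold change was 0.62 (95% interval 0.11 to 1.13, limma adjusted p = 0.293), and 0.37 without Prdm16SMKO 2, its highest aorta. Foxc2 was at 41.1, 34.5 and 34.3 TPM in Control and 43.2, 53.3 and 37.5 TPM in Prdm16SMKO (log2 fold change 0.28, limma adjusted p = 0.499), and without Prdm16SMKO 2 the value was 0.14. For Foxc1 the log2 fold change was 0.13 with a 95% interval of -0.21 to 0.47, and for Foxp1 it was 0.14 with an interval of -0.19 to 0.46. The intervals of the abundant genes Foxp1, Foxc1, Foxo3 and Tbx18 lie within 0.5 of 0 on either side on the log2 scale. Foxn3, a checkpoint-associated repressor, and Foxj3 were at -0.36 and -0.34 (limma adjusted p = 0.394 and 0.350), and Foxn2 was at -0.29 (0.505).

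**Figure D2:**
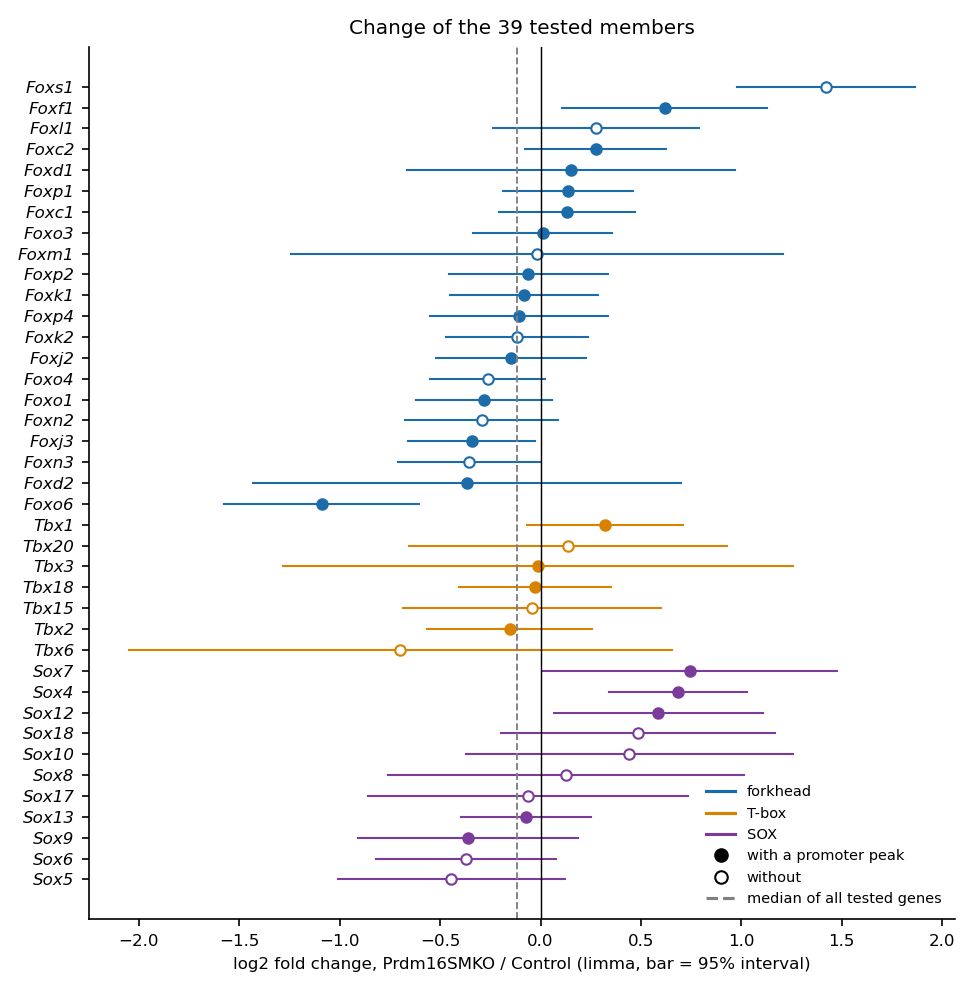
Log2 fold change of Prdm16SMKO against Control for the 39 tested genes by family, with 95% intervals from limma. Filled points have a PRDM16 promoter peak and open points have none, and the dashed line is the median of all tested genes at -0.12. Foxs1 at 1.42, an open point, and Foxo6 at -1.09, a filled point, lie at the ends.

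Among the T-box genes, none of the 7 tested was called (limma, 0 also at an unadjusted p under 0.05). TBX18 marks mural cells and their epicardial progenitors, and Tbx18 had a log2 fold change of -0.03 (95% interval -0.41 to 0.35), which was 0.09 after median-ratio rescaling. TBX1, a regulator of the pharyngeal arches and outflow tract, was at 4.85, 4.86 and 5.54 TPM in Control and 7.35, 5.88 and 5.98 TPM in Prdm16SMKO, with no overlap (log2 fold change 0.32, limma adjusted p = 0.474). Tbx2 and Tbx20, known from heart development, were at -0.15 and 0.14 (limma adjusted p = 0.768 and 0.911), and leaving out Control 2 or Prdm16SMKO 2 turned the Tbx20 value negative (-0.15 each). The 6 cardiomyocyte markers summed to 30.7 to 54.0 TPM in Control and 503 to 520 TPM in Prdm16SMKO. That difference came almost wholly from Tnnt2 (cardiac troponin T), at 33.8, 21.7 and 16.8 TPM against 484, 503 and 503 TPM, which was the only cardiomyocyte marker of the 5 tested to be called (limma adjusted p = 0.00015).

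The SOX genes held no called gene among 11 tested (limma, 3 of them with an unadjusted p under 0.05). The endothelial group was mixed. Sox17 was at 5.57, 8.03 and 8.41 TPM in Control and 10.4, 3.74 and 8.48 TPM in Prdm16SMKO, so its groups overlapped widely (log2 fold change -0.06, SE 0.35), and without Prdm16SMKO 2 the value was 0.37. Sox18 was at 4.27, 8.08 and 5.72 TPM in Control and 10.8, 5.46 and 9.26 TPM in Prdm16SMKO. Sox7 was at 0.87, 1.79 and 1.47 TPM in Control and 2.54, 1.95 and 2.40 TPM in Prdm16SMKO, with no overlap (log2 fold change 0.74, limma adjusted p = 0.387). Prdm16SMKO 2, which had the lowest Sox17 value, also had the lowest endothelial marker sum of the 6 aortas, 126 TPM. Pecam1, Cdh5, Tek and Cldn5 were lowest in that aorta, and the other endothelial markers were not. Sox18 and Sox7 were lowest in Control 1, where the sum was 178 TPM. The part of the endothelial share in these values was not tested.

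The chondrogenic SOX genes had negative log2 fold changes and were not called. Sox9 was at 2.92, 2.47 and 2.08 TPM in Control and at 1.94, 1.89 and 1.86 TPM in Prdm16SMKO, with no overlap (log2 fold change -0.36, limma adjusted p = 0.571). Sox5 and Sox6, which act with SOX9 on cartilage genes, were at -0.44 (limma adjusted p = 0.499) and -0.37 (0.476), and without Prdm16SMKO 2, its lowest aorta, Sox5 was at -0.17. Sox13 was at -0.07 and turned to 0.05 after median-ratio rescaling. In a list of 20 cartilage genes regulated by SOX9, 13 were tested. Of these, 2 were called as lower, Mia and Comp, and 0 as higher (limma), beside 0.683% and 0.389% of all tested genes. At an unadjusted p under 0.05 in limma, 5 were lower and 1 was higher, Col11a2 (log2 fold change 0.69), beside 9.45% and 3.22% of all tested genes. The log2 fold change was negative for 10 of the 13 and positive for 3, Col11a2, Snorc and Cytl1. Mia, which encodes a small secreted cartilage protein, was at 8.90, 11.1 and 7.73 TPM in Control and 3.24, 2.62 and 2.18 TPM in Prdm16SMKO (log2 fold change -1.75, SE 0.22, limma adjusted p = 0.00791). Comp, which encodes cartilage oligomeric matrix protein, was at 27.9, 25.3 and 21.4 TPM in Control and 13.2, 11.7 and 12.3 TPM in Prdm16SMKO (log2 fold change -0.99, SE 0.14, limma adjusted p = 0.0153). The call of Comp was lost without Control 1 (limma adjusted p = 0.0549) or Control 2 (0.0720). Acan, the aggrecan gene, was at -0.80 (limma adjusted p = 0.0597), and it passed the threshold with a filter of at least 1 TPM (limma adjusted p = 0.0491) and after median-ratio rescaling (0.0293). The defining cartilage genes Col2a1 and Matn1 were at a mean of 0.71 TPM and at 0, respectively. The median log2 fold change of the 13 genes was -0.42, beside -0.12 for all tested genes.

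PRDM16 Flag peaks were assigned to a gene when the peak centre lay within 2 kb of the transcription start site (TSS) of a curated RefSeq transcript. At least 1 such promoter peak was found at 33 of the 76 genes (43.4%), against 26.2% of the 25163 genes of the table with a curated TSS. Among tested genes the share was 23 of 39 (59.0%) against 43.3% of the 13137 tested genes with a curated TSS, and among untested genes 10 of 37 (27.0%) against 7.53% of the 12026 untested ones with such a TSS. By family, 21 of 44 forkhead, 5 of 13 T-box and 7 of 19 SOX genes had one. In the 67 peaks of the vector cells, 0 lay at a promoter of the 76 genes and 0 overlapped their promoter peaks. That list is short beside the 11271 PRDM16 peaks, so these counts of 0 say little. With 1 library per condition these shares have no replicate check, and no test was made.

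**Figure D3:**
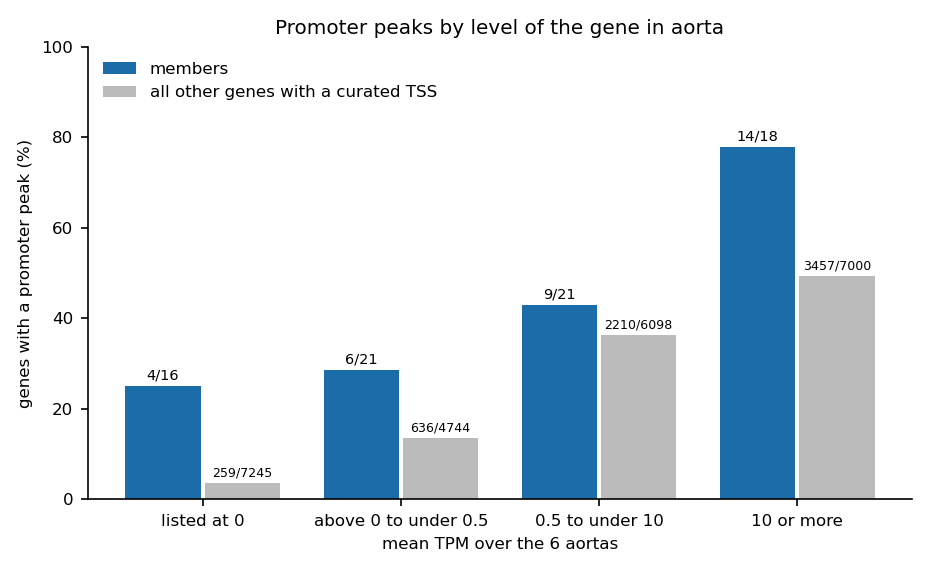
Percentage of genes with a PRDM16 promoter peak by mean TPM in aorta, for the 76 members (blue) and for all other genes with a curated TSS (grey), with the number of genes over each bar. The members have the taller bar at every level, from 4 of 16 at 0 TPM to 14 of 18 at 10 TPM or more, where the other genes stand at 3.57% and 49.4%.

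The shares differed with the level of the gene in aorta. Of the 16 genes listed at 0 TPM, 4 had a promoter peak (Foxa1, Foxb2, Foxe3 and Sox21), or 25%, beside 3.57% of the other genes listed at 0. Of the 18 genes with at least 10 TPM, 14 had one, or 77.8%, beside 49.4% of the other genes at that level. The 4 abundant genes without a promoter peak were Foxn3, Foxo4, Foxk2 and Foxs1. Foxn3 held 3 peaks inside its gene, the nearest 57.6 kb downstream of a curated TSS, and counted as having a promoter peak when the TSS of GENCODE transcripts were used, as did Sox5. Of the endothelial genes Sox7 had a promoter peak, and Sox17 and Sox18 had none.

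The 33 genes carried 51 promoter peaks, 32 at forkhead, 8 at T-box and 11 at SOX genes. More than 1 promoter peak was found at 14 of the 33 (42.4%), against 15.4% of all genes of the table with a promoter peak, and Foxo1, Tbx1, Sox9 and Sox11 had 3 each. Their median width was 552 bp against 436 bp for all 6873 promoter peaks, and 14 of 51 (27.5%) were at least 1 kb wide against 9.89%. The median fold enrichment, which MACS2 gives as the summit height over local background, was 4.92 against 5.27 for all promoter peaks. The centre lay downstream of the TSS for 37 of the 51 peaks (72.5%), against 75.0% of all promoter peaks. Their summits fell in a coding exon at 21 peaks, in a UTR at 8, in an intron at 8 and outside the gene at 14.

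**Figure D4:**
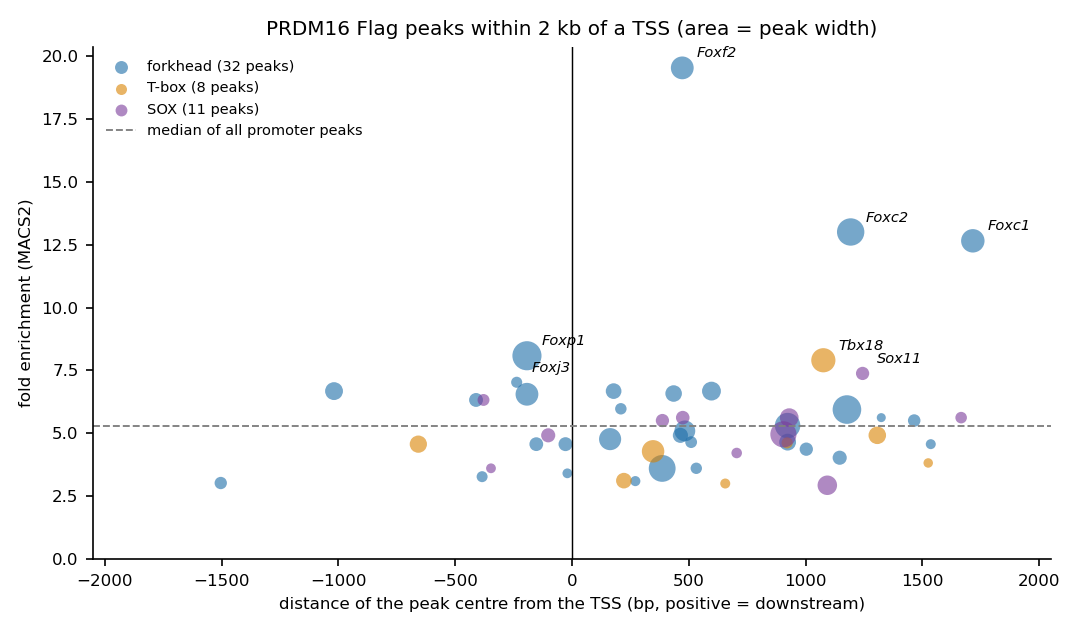
The 51 promoter peaks by distance of the centre from the TSS in bp (positive is downstream) and by fold enrichment, coloured by family, with the area of each point in proportion to peak width. The dashed line is the median of all promoter peaks at 5.27, and Foxf2, Foxc2 and Foxc1 stand above 12 on the downstream side.

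The 3 strongest promoter peaks belonged to forkhead genes that lie in gene clusters. Foxq1, Foxf2 and Foxc1 lie within 256 kb on chromosome 13 (31556134 to 31812476), and Foxf1, Foxc2 and Foxl1 within 46.3 kb on chromosome 8 (121084386 to 121130644), and 5 of these 6 genes had a promoter peak. Foxf2, a pericyte factor related to Foxf1, had a peak of 1438 bp with a fold enrichment of 19.5, the 5th highest of the 6873 promoter peaks, with its summit in the 5′ UTR. Foxf2 was at only 0.31, 0.31 and 0.27 TPM in Control and 0.52, 0.39 and 0.30 TPM in Prdm16SMKO aortas, below the filter. Foxc2 had a peak of 2072 bp with a fold enrichment of 13.0 and its summit in the coding exon. Foxc1 had a peak of 1520 bp with a fold enrichment of 12.7, also with the summit in the coding exon, and another of 6.33 with the summit at -285 bp from the TSS. Foxf1 had a pair of peaks with a fold enrichment of 6.68 each, which also lay at the divergent noncoding gene Fendrr. At Foxl1 the nearest peak was 2.29 kb upstream, just outside the window.

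Sequence is shown for Foxf2, with the strongest promoter peak, for both Foxc1 peaks, for Tbx18, with the strongest T-box peak, and for Sox4, with the weakest of the promoter peaks. All are from GRCm38.p6, written 5′ to 3′ on the strand of the gene, and capitals mark each CpG. The Foxf2 stretch holds the 150 bases before the TSS (RefSeq promoter table), which lie wholly inside its peak. The others are 81 bases centred on a summit, in the order Foxc1 upstream, Foxc1 coding exon, Tbx18 intron and Sox4 coding exon.
Foxf2, chr13:31625666-31625815: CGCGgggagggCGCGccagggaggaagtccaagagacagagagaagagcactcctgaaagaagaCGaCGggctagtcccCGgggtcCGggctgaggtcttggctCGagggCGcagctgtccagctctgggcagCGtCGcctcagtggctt
Foxc1, chr13:31806321-31806401: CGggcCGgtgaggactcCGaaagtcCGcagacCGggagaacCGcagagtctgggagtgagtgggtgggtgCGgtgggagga
Foxc1, chr13:31808553-31808633: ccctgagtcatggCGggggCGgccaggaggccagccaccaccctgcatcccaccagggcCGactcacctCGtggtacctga
Tbx18, chr9:87729633-87729713: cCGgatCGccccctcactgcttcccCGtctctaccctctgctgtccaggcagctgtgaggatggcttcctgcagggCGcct
Sox4, chr13:28952366-28952446: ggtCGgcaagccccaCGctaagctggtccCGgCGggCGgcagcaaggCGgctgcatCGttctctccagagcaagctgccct
The Foxf2 stretch holds 12 CpG and is 66.7% GC, and the summit stretches hold 7, 4, 4 and 7 CpG at 66.7% to 70.4% GC.

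RefSeq promoter windows, from 250 bases before to 50 bases after the TSS, matched 50 of the 76 genes by symbol, with 63 windows. Their median GC content was 61.3% with a median of 15 CpG, beside 52.7% and 7 CpG over all 32851 windows. Windows of members with a promoter peak had a median of 26 CpG and those of members without one a median of 8. Over all genes the same medians were 23 and 5. The core words of the families were searched on both strands, and no word holds another. The forkhead core TGTTTA was in 5 of the 33 forkhead windows (13.4% of all windows), the SOX core ACAATG in 3 of the 18 SOX windows (12.6% of all windows), and the T-box core AGGTGT in 1 of the 12 T-box windows (13.7% of all windows). None of the printed stretches holds any of these words.

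The other named genes had peaks nearer the median. Foxp1 had a promoter peak of 2345 bp with a fold enrichment of 8.09 and another of 3.61 at a second TSS. Tbx18 had a peak with a fold enrichment of 7.91, Sox11 3 peaks of up to 7.38 in spite of a mean of 0.0067 TPM in aorta, and Foxj3 one of 7.03 upstream of its TSS. Foxo1 had 3 peaks of up to 6.68. Foxo6 had a peak with a fold enrichment of 4.57 whose centre was at -153 bp from the TSS. Sox4 had the weakest of the 51, with a fold enrichment of 2.94 and its centre 1093 bp downstream, and it was lost at a q of at most 0.001. Sox9, Tbx1, Sox7, Tbx2 and Sox13 had promoter peaks of up to 5.63, 4.62, 4.92, 4.29 and 4.22, while Foxn2, Tbx20 and Sox5 had none.

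At Foxs1, the called gene, no peak lay within 2 kb of the TSS. The nearest was 4.78 kb downstream (297 bp wide, fold enrichment 4.01), the next 7.72 kb downstream (4.92), and both lay between Foxs1 and Mylk2. The region within 20 kb held 6 peaks in all, of which 2 were inside Mylk2 and 2 at the promoter of Dusp15. Mylk2, a myosin light chain kinase gene, was at 30.6, 23.2 and 18.8 TPM in Control and at 11.4, 13.5 and 8.90 TPM in Prdm16SMKO. Its groups did not overlap, with a log2 fold change of -1.09 opposite in sign to that of Foxs1 (limma adjusted p = 0.0567). Of the 3 tested genes within 100 kb of Foxs1, which were Mylk2, Tpx2 and Pdrg1, 0 were called (limma, 1 at an unadjusted p under 0.05).

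**Figure D5:**
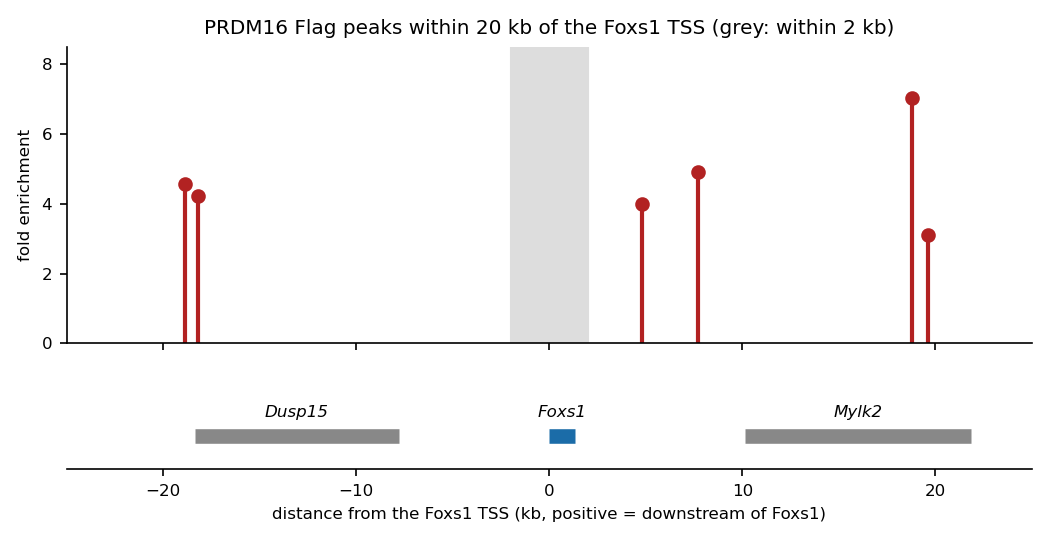
Fold enrichment of the 6 PRDM16 Flag peaks within 20 kb of the Foxs1 TSS against their distance in kb (positive is downstream of Foxs1), with the genes below to scale. The grey band, within 2 kb of the TSS, holds no peak.

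Set beside each other, the tested genes with and without a promoter peak had median log2 fold changes of -0.03 (23 genes, from -1.09 to 0.74) and -0.05 (16 genes, from -0.70 to 1.42). Over all tested genes with a curated TSS these medians were -0.11 and -0.12, and 1.04% of those with and 1.21% of those without a promoter peak were called. Foxs1 belonged to the genes without a promoter peak, and Foxo6 and Sox4 to those with one.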

How the data were processed

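RNA-Seq of poly(A)-selected thoracic aorta RNA (3 Control, 3 Prdm16SMKO mice) was deposited by the authors as TPM, 1 column per aorta. The submitters' processing notes name STAR 2.7.8a and RSEM 1.3.3 among their tools. TPM keep no depth, so the depth behind each aorta is not known, and no interval or test that needs counts was made. For ChIP-Seq the authors aligned reads to GRCm38 with Bowtie2 (version 2.3.4.1 in the notes) and called peaks with MACS2 per library, using its genome-size preset for human, which affects p and q. The MACS2 control library is not given in the sources used here. The deposited peak lists hold, by the authors, the fold enrichment as a ratio, −log10 p and −log10 q, and the highest q in the PRDM16 list was 0.0483. The lists hold no read counts. The IgG libraries are not analysed here.

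Prdm16SMKO was compared with Control by limma 3.58.1 (R 4.3.3), fitted to log2(TPM + 0.1) with moderated variances that follow a trend on the mean, over the 15668 genes with a mean of at least 0.5 TPM in the 6 aortas, without covariates, with Benjamini-Hochberg adjustment. A fold change on this scale understates the change of low genes. No source states how the animals relate, so p values measure the spread between these aortas. Same-numbered aortas had correlations of -0.025, -0.070 and -0.009 after centring on their groups. These values show no pairing by number but cannot exclude it, since other differences between aortas also enter them. The procedure was tested on simulated data. Peaks were placed by their centres with Python 3.11.15 and pandas 2.3.3, and sequences were read with pysam 0.24.0.

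The genes and lists were chosen with earlier results of these data known. Named genes are those called, those with a mean of at least 1 TPM and groups without overlap, the 4 most abundant of each family, the 8 with the strongest promoter peaks (with ties) and those with 3 or more promoter peaks. Other members are named to account for the families, except 1 that enters the counts and is not reported here. Alternatives were pseudocounts of 1 and 0.01, a mean of at least 1 TPM or no filter, median-ratio rescaling, quantile normalization, no trend, a replicate block, leaving out each aorta, and 7 other rules for promoter peaks.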

Additional observations from a re-analysis of the deposited data

How the results depend on the processing

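The count of called forkhead, T-box and SOX genes was 1 (Foxs1) with either other pseudocount, either other filter, the replicate block and each of the 6 fits without 1 aorta. It was 3 (Foxo6, Foxs1 and Sox4) after median-ratio rescaling and also 3 after quantile normalization, and 0 without the trend. Over all genes the calls went from 168 to 411, 392 and 48 in these settings. Of the tested members, 16 were above and 23 below 0 as tested, and 26 above and 13 below after median-ratio rescaling. The count for the FOXO pathway list moved from 1 to 2, 2 and 0 in the same settings (Irs2 and Fbxo32), and was 0 to 1 when 1 aorta was left out. The count for the SOX9 cartilage list was 3 (Acan, Comp and Mia) with a mean of at least 1 TPM, after median-ratio rescaling and after quantile normalization, 0 without the trend, and 1 to 2 when 1 aorta was left out. With the replicate block the counts of the 3 lists were 1, 1 and 2 and no call changed.

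Among 21 members with recomputed log2 fold changes, 17 kept their sign in all 14 alternatives. After median-ratio and quantile normalization, Sox13 turned to 0.0459 and 0.0438, Sox17 to 0.0549 and 0.0372, and Tbx18 to 0.0901 and 0.0936. Leaving out 1 aorta gave -0.35 to 0.37 for Sox17, -0.15 to 0.11 for Tbx18 and -0.15 to 0.46 for Tbx20. It also gave 0.03 to 0.25 for Foxc1, 0.03 to 0.26 for Foxp1, 0.14 to 0.39 for Foxc2, 0.37 to 0.81 for Foxf1, -0.65 to -0.17 for Sox5, 0.47 to 0.95 for Sox7, -0.22 to -0.03 for Tbx2, -0.37 to -0.15 for Foxn2, -0.45 to -0.23 for Foxn3 and -0.35 to -0.18 for Foxo1. None of the members in these sentences was called in any setting. The cause was not tested.

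The number of members with a promoter peak was 28 (36.8%) for a window of 1 kb and 37 (48.7%) for 5 kb. Over all genes with a curated TSS these shares were 24.7% and 28.4%. By summit or by any base of the peak it was 33 (43.4%), beside 26.2% and 26.4% of all genes. At a q of at most 0.001 it was 29 (38.2%), beside 23.8%. With GENCODE transcripts it was 34 (44.7%), beside 15.1% of a larger set of 53543 genes. The 1 kb window lost Foxc2, Tbx18, Sox4, Foxo3 and Foxb2, the stricter q lost Foxe1, Foxe3, Sox4 and Tbx21, and GENCODE transcripts added Foxn3 and Sox5 and lost Foxq1. It was 12 for a window from 1 kb upstream to 100 bp downstream, where 9.01% of all genes had a peak. The 5 kb window added Foxl1, Foxn1, Foxs1 and Tbx6.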

Other observations

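Transcripts named for lying opposite or beside the members were outside the symbol rule and were looked at after the results were seen. Fendrr, which diverges from Foxf1, was at 2.48, 2.58 and 1.19 TPM in Control and 2.19, 4.86 and 2.03 TPM in Prdm16SMKO. Foxo6os, which lies beside Foxo6, was at 0.63, 0.68 and 0.93 TPM in Control and 0.29, 0.74 and 0.40 TPM in Prdm16SMKO (log2 fold change -0.61, limma adjusted p = 0.671). Foxd2os was at 1.40, 1.11 and 1.23 TPM in Control and 0.78, 0.53 and 1.23 TPM in Prdm16SMKO (limma adjusted p = 0.594). These groups overlapped and none was called. Reads of overlapping transcripts on opposite strands cannot be told apart where counting does not use strand, and the strand setting is not given in the sources used here.

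The 7 T cell markers summed to 0.82 to 2.01 TPM in Control and 2.34 to 7.82 TPM in Prdm16SMKO, and Foxp3 of regulatory T cells was at 0.32, 0.20 and 0.03 TPM against 0.27, 0.14 and 0.18 TPM. The 5 mesothelial markers summed to 0.27 to 3.41 TPM in Control and 4.38 to 5.41 TPM in Prdm16SMKO. These sums did not overlap, and 0 of the 2 and 0 of the 3 tested genes were called (limma). The 2 tested T cell genes, Trac and Trbc2, passed the filter only through Prdm16SMKO, with Control means of 0.087 and 0.30 TPM. Trac and Trbc2 made up most of the T cell sum in each Prdm16SMKO aorta. The mesothelial genes Krt19 and Msln also passed the filter only through Prdm16SMKO (Control means 0.27 and 0.36 TPM) and enter their sums. Neither the direction of these tested genes nor the gap between the sums is thus a separate result. Of the untested T cell markers, Cd3e and Cd3g had lower means in Prdm16SMKO, and Cd3d, Cd4 and Il2ra higher ones. The 6 chondrocyte markers summed to 32.1 to 40.5 TPM in Control and 17.9 to 20.7 TPM in Prdm16SMKO, mostly from Comp and Acan, which are also in the SOX9 list. Those groups did not overlap either, all 4 tested genes had negative log2 fold changes, and Comp was called. The 6 brown adipocyte markers spanned 118 to 615 TPM in Control and 139 to 496 TPM in Prdm16SMKO, with overlap. Of the family members that the symbol rule leaves out (the T, Tbxt, Eomes, Tbr1, Mga and Sry symbols), 5 were in the table and 1 was tested, which was not called.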
